A study of Mus musculus with 16 samples.

Results

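The data describe where 2 histone marks lay with respect to each other in regenerating mouse liver of Arid1a WT mice, from the list of called H3K4me2 regions and the list of called H3K27ac regions on the 19 autosomes. The H3K4me2 list held 65454 autosomal regions and the H3K27ac list 61992, together 127446 of the 261666 regions and peaks in the 8 lists of the series. A region counted as carrying both marks when it overlapped a region of the other list by at least 1 bp. The regions of both lists were then merged into stretches, of which 37762 (45.6%) carried both marks, 23464 (28.3%) carried H3K4me2 alone and 21583 (26.1%) carried H3K27ac alone.

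Chromatin immunoprecipitation followed by sequencing (ChIP-seq) had been done on regenerating livers, taken 40 h after part of the organ had been cut away (partial hepatectomy), an injury that sets hepatocytes dividing. The labels state that hepatocytes were isolated, and KO and WT livers below stand for these samples. KO mice were Arid1a Fl/Fl; Alb-cre, in which Cre is driven by the albumin promoter and so acts in the hepatocyte lineage, and WT mice were Arid1a Fl/Fl without Cre. Both genotypes were on a C57/B6 and 129 mix at postnatal day 90, and Arid1a codes for a DNA-binding component of SWI/SNF, a remodeller of nucleosomes. With a single library for each mark in each genotype, differences between the marks have no replicate check, and none was tested. E2f4, a repressor of cell cycle genes, had 2 libraries per genotype. The lists hold no read counts, so the depth behind each region is unknown.

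H3K4me2, dimethylation of lysine 4 of histone H3, marks promoters and enhancers of genes that are active or can be activated, and it is also found at CpG-rich promoters of silent developmental genes. H3K27ac, acetylation of lysine 27 of the same histone, is laid down by the acetyltransferases CBP and p300 and marks the promoters and enhancers in use. The lysine that carries H3K27ac is the one that Polycomb complexes methylate, so that acetylation and Polycomb methylation exclude each other on a histone tail.

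The labels do not record sex, and the WT lists differed from each other at genes that tell the sexes apart. Xist, the RNA of the inactive X chromosome, had 10640 bp of H3K4me2 and 3536 bp of H3K27ac in KO livers, against 10990 bp of H3K4me2 and 0 bp of H3K27ac in WT livers, over the gene and 5000 bp either side. All 4 Y-linked genes examined had 0 bp of both marks in KO livers and 0 bp of H3K4me2 in WT livers. The H3K27ac list of WT livers alone covered them, with 3161 bp at Ddx3y, 1938 bp at Eif2s3y, 1766 bp at Uty and 889 bp at Kdm5d. In the WT pair, the mark and the animals behind each library therefore cannot be told apart. The KO pair, whose 2 lists are alike at these genes, is given beside many of the results. The broadest stretches, the lengths within gene spans and some single genes are given for WT livers alone.

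A promoter or more of each class of gene is shown because the classes differed in CpG content. The sequences are the 250 bases before the gene start, from RefSeq on GRCm38.p6, printed 5′ to 3′ with CpG in capitals. A TATAAA at the position of a TATA box is also in capitals. Alb encodes serum albumin and Mki67 a protein of dividing cells, and both carried both marks. Gata3, a regulator of T cells and of several embryonic tissues, and Cyp2a4, a steroid hydroxylase, carried H3K4me2 alone in WT livers. Cd163, the haemoglobin scavenger receptor of macrophages, carried H3K27ac alone.
Alb (chr5:90460620-90460869, + strand): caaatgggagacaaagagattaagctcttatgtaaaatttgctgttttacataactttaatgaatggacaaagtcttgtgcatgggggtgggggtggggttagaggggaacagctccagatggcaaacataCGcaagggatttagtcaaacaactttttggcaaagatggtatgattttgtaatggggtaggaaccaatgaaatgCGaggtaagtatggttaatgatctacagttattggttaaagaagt
Mki67 (chr7:135716380-135716629, - strand): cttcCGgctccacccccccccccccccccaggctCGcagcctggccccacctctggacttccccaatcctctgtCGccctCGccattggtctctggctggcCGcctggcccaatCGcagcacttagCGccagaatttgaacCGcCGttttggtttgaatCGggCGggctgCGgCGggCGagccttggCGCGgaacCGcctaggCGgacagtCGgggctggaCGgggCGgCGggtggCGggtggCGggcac
Gata3 (chr2:9878601-9878850, - strand): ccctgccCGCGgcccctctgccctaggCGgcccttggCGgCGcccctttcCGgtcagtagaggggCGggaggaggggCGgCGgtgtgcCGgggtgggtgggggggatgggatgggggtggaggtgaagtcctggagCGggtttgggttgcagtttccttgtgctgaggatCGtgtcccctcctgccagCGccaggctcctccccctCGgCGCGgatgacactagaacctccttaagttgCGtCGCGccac
Cyp2a4 (chr7:26306942-26307191, + strand): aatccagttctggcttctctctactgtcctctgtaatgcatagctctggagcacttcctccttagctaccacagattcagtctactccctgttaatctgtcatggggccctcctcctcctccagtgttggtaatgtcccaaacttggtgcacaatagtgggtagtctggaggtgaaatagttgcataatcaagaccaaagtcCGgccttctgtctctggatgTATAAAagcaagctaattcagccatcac
Cd163 (chr6:124304401-124304650, + strand): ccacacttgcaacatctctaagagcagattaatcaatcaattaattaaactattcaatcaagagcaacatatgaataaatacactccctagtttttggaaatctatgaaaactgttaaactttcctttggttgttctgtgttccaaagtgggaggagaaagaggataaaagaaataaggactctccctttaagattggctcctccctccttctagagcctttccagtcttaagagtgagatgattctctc
Mki67 and Gata3 hold CpG throughout, and Alb, Cyp2a4 and Cd163 hold few. Over the full window of 250 bases before to 50 after the start, the ratio of observed to expected CpG was 0.809 for Mki67, 0.658 for Gata3, 0.272 for Alb, 0.188 for Cd163 and 0.0581 for Cyp2a4. The TATAAA of Cyp2a4 begins at position -28 from the start.

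About 2 regions in 3 of either list carried the other mark. H3K27ac overlapped 41989 H3K4me2 regions, 64.2% of that list (exact Clopper-Pearson 95% interval 63.8 to 64.5%), and H3K4me2 overlapped 40408 H3K27ac regions, 65.2% of that list (64.8 to 65.6%). These intervals cover counting error over regions only. H3K4me2 covered 102 Mb and H3K27ac 111 Mb of the autosomes, and 68.6 Mb carried both, which is 67.2% of the H3K4me2 length, 62.0% of the H3K27ac length and 47.6% of the 144 Mb with either mark. In the KO pair the order was the reverse, with 110 Mb of H3K4me2 and 102 Mb of H3K27ac. There 56.1% of H3K4me2 regions and 71.4% of H3K27ac regions carried the other mark. Chromosomes differed little in WT livers: the share of H3K4me2 regions with H3K27ac lay between 59.6% on chromosome 3 and 66.8% on chromosome 8, with a median of 64.4%.

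Regions with a single mark were short and weak. Merged stretches with both marks had a median width of 2132 bp, against 527 bp for H3K4me2 alone and 522 bp for H3K27ac alone. A stretch with both marks joins regions of both lists, and a wider region meets the overlap rule more easily. This order therefore follows in part from the rule. Before merging, the median width was 1442 bp for H3K4me2 regions with H3K27ac and 1541 bp for H3K27ac regions with H3K4me2. The median −log10 q-value, the authors' own measure of how far a region stood above background, was 4.40 for H3K4me2 regions with H3K27ac and 2.33 for those without. For H3K27ac regions it was 4.07 with H3K4me2 and 1.90 without. When each list was ranked by that value, 91.0% of the strongest 20% of H3K4me2 regions and 99.1% of the strongest 20% of H3K27ac regions carried the other mark. In the weakest 20%, the shares were 42.2% for H3K4me2 and 30.2% for H3K27ac. Strong H3K27ac without H3K4me2 was thus rarer than strong H3K4me2 without H3K27ac. In the KO pair the shares were 89.6% of the strongest and 29.1% of the weakest 20% for H3K4me2, and 99.9% and 37.6% for H3K27ac.

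**Figure D1:**
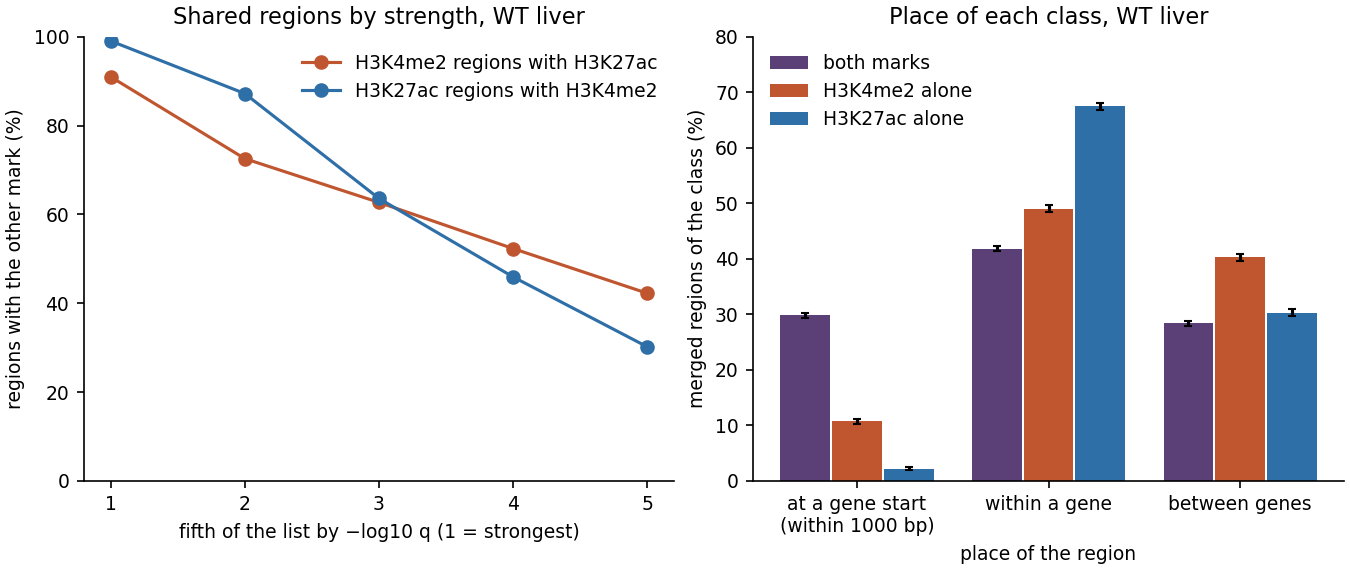
Left, share of regions with the other mark (%) in each 20% of the H3K4me2 and H3K27ac lists of WT liver, ranked by −log10 q-value, 1 library per mark. Right, share of merged regions with both marks, H3K4me2 alone or H3K27ac alone (%) that lay at a gene start, within a gene or between genes, with exact 95% intervals for counting error. For genes with no listed start, either outer end counted as a start. The strongest H3K27ac regions carried H3K4me2 in 99.1% of cases and the weakest in 30.2%, and regions at gene starts were 29.8% of the class with both marks and 2.21% of H3K27ac alone.

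Width showed the same gradient. Of the H3K4me2 regions of 4000 bp or more, 99.6% carried H3K27ac, against 30.7% of those under 300 bp. Of the H3K27ac regions of 4000 bp or more, 98.1% carried H3K4me2, against 30.9% of those under 300 bp. H3K27ac alone lay closer to the other mark than H3K4me2 alone did. The gap from an H3K4me2-alone region to the nearest H3K27ac region had a median of 10228 bp in KO livers and 10098 bp in WT livers. The gap from an H3K27ac-alone region to the nearest H3K4me2 region had a median of 3014 bp in KO livers and 3717.5 bp in WT livers. In WT livers 34.9% of H3K4me2-alone regions and 58.3% of H3K27ac-alone regions had the other mark within 5000 bp.

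In the broadest merged stretches most of the H3K4me2 lay inside H3K27ac. The longest spanned 116809 bp at Mtss1, which encodes a protein that links membranes to actin, on chromosome 15 (58969032 to 59085840, build mm10), with 115160 bp of H3K27ac and 76763 bp of H3K4me2. The next were at Shb, an adaptor of receptor tyrosine kinases (62249 bp), Rxra, the partner of the nuclear receptors of liver (58670 bp), Sh3bp5 (53649 bp), Adk, adenosine kinase (52253 bp), and Rora, a clock-linked nuclear receptor (48906 bp). H3K27ac was the longer mark in all 10 of the broadest stretches, which also took in Por, the electron donor of the cytochromes P450, Cyb5a, Tns1 and Zbtb16. All are stretches of WT livers, and those of the KO pair were not ranked.

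The classes lay in different places. Of the stretches with both marks 29.8% lay within 1000 bp of the start of a protein-coding gene, against 10.7% for H3K4me2 alone and 2.21% for H3K27ac alone. Gene starts, here and in the lengths by place below, are any listed start and both outer ends of the 4208 genes with no listed start. Some gene ends are therefore counted as starts. H3K27ac alone lay mostly inside genes, 67.5% of its stretches, against 49.0% for H3K4me2 alone and 41.8% for both marks. Between genes lay 40.3% of H3K4me2 alone, 30.3% of H3K27ac alone and 28.3% of both marks. More than 10000 bp from either end of any gene lay 33.3% of stretches with both marks, 44.0% of H3K4me2 alone and 49.2% of H3K27ac alone; this count includes positions deep inside long genes.

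Where both marks were present, which of them was longer varied with the place. At gene starts the median length was 3213 bp of H3K4me2 and 2349.5 bp of H3K27ac in the 11248 KO stretches, against 3038 bp and 2322 bp in the 11263 WT stretches. H3K4me2 was the longer mark in 75.1% of them in KO livers and 73.4% in WT livers. Away from gene starts the order turned round. Within genes H3K27ac was the longer mark in 56.9% of stretches in KO livers and 63.0% in WT livers, with WT medians of 1170.5 bp of H3K4me2 and 1490 bp of H3K27ac. Between genes H3K27ac was the longer in 55.7% in KO livers and 59.3% in WT livers, with WT medians of 1095 bp of H3K4me2 and 1292 bp of H3K27ac.

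**Figure D2:**
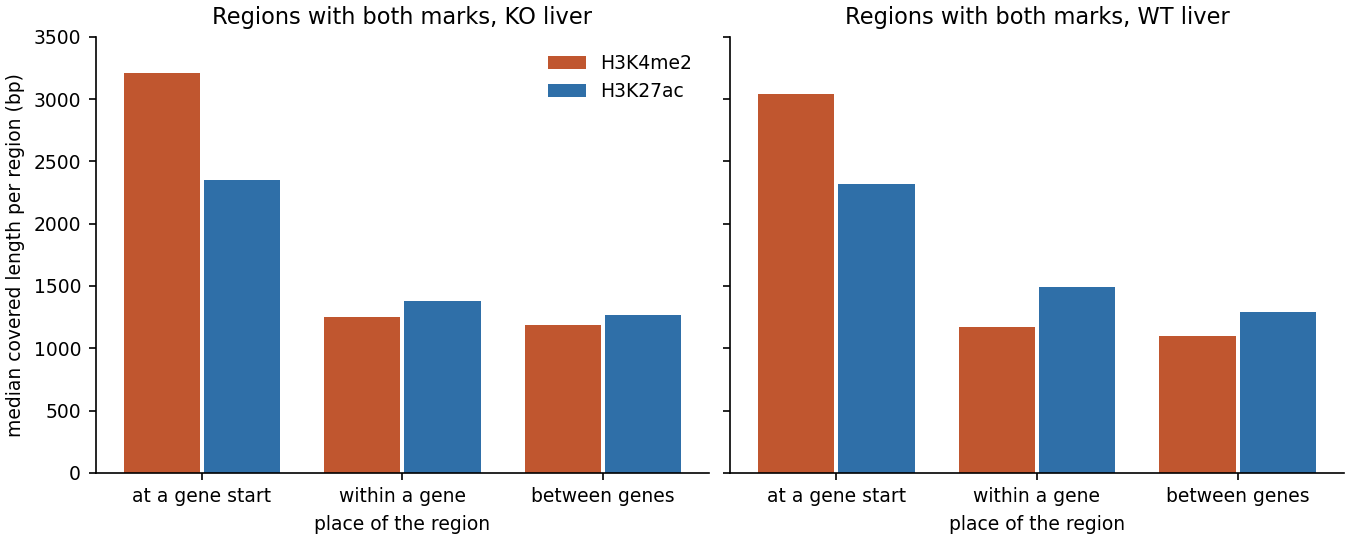
Median length (bp) covered by H3K4me2 and by H3K27ac in merged regions with both marks, at gene starts, within genes and between genes, in the KO pair of libraries and the WT pair, 1 library per mark and genotype. H3K4me2 is longer at gene starts in both pairs (3213 and 2349.5 bp in KO, 3038 and 2322 bp in WT), and H3K27ac is longer elsewhere.

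Around the 16457 gene starts listed by RefSeq, H3K4me2 covered more starts than H3K27ac, and the curves met again farther out. Its cover peaked at 64.2% of starts, 100 bp inside the gene, and that of H3K27ac at 54.9%, 200 bp inside. At 1000 bp into the gene, H3K4me2 covered 52.9% of starts and H3K27ac 35.3%. At 1000 bp before the start the shares were 30.3% for H3K4me2 and 24.9% for H3K27ac. At 5000 bp before the start H3K27ac was slightly above H3K4me2, 7.94% for H3K4me2 and 8.77% for H3K27ac, and at 5000 bp into the gene the shares were 11.6% for H3K4me2 and 12.0% for H3K27ac.

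**Figure D3:**
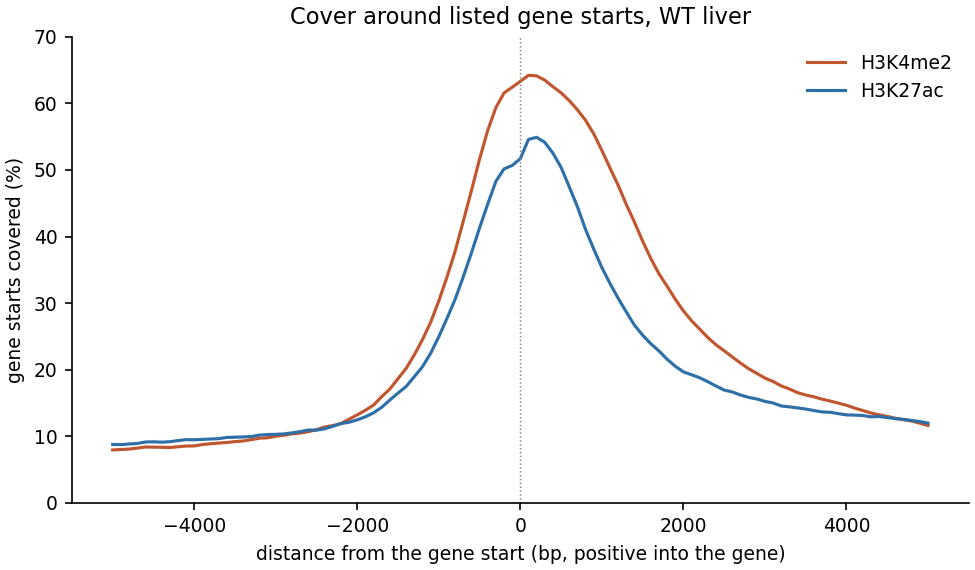
Share of the 16457 listed gene starts (%) whose position at each distance from the start (bp, positive into the gene) was covered by H3K4me2 or by H3K27ac in WT liver. H3K4me2 peaks at 64.2% and H3K27ac at 54.9%, and the curves lie farthest apart inside the gene.

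Each of the 20665 protein-coding genes was put in a class by the regions within 1000 bp of a single position. That position was its listed start or, for the 2660 genes with several, the most heavily marked of them in WT livers. Where no start is listed, it was the more heavily marked of the 2 outer ends. The choice thus used the same WT marks that are counted here. Both marks shared a region at 11910 genes, 57.6% of all. This class needs a stretch with both marks that reaches the 1000 bp, and either mark may lie outside them. H3K4me2 stood alone at 2078 genes, 10.1%, and H3K27ac alone at 167 genes, 0.808%. A further 30 genes, 0.145%, had both marks in separate regions, and 6480, 31.4%, had neither. A stretch with H3K27ac that reached a gene position thus nearly always carried H3K4me2 as well, though not always within the 1000 bp. The covered length within 5000 bp either side, a window of 10001 bp, had medians of 3616.5 bp of H3K4me2 and 2892 bp of H3K27ac at genes with both marks. At genes with H3K4me2 alone the median was 1198 bp of H3K4me2 and 0 bp of H3K27ac.

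In KO livers both marks stood at 58.0% of genes, H3K4me2 alone at 10.5%, H3K27ac alone at 0.605%, both in separate regions at 0.116% and neither at 30.8%. These KO values were read at the gene position that was the most heavily marked in WT livers, as are the KO values around gene positions below. The KO lists, which the classes did not use, differed in how far they held each class. Of the genes with both marks in WT livers, 97.1% had both marks in KO livers too, and of those with neither, 93.9% again had neither. Of the genes with H3K4me2 alone 76.7% kept that class in KO livers and 14.4% had both marks there. Of the 167 genes with H3K27ac alone 13.8% were in that class in KO livers, 28.1% had both marks and 34.7% neither. Among merged stretches, the KO H3K4me2 list overlapped 91.7% of those with both marks and 62.0% of H3K4me2 alone, while the KO H3K27ac list overlapped 83.6% of those with both marks and 35.8% of H3K27ac alone. Stretches with both marks are wider and so meet an overlap more easily, and classes of equal width were not compared. H3K27ac of the KO list lay on 16.2% of the WT stretches with H3K4me2 alone.

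Genes of the hepatocyte itself carried both marks over long stretches. Both marks stood at 26 of 28 hepatocyte identity factors, at 40 of 40 genes for secreted plasma proteins and at 46 of 47 genes of hepatic metabolism, against 57.6% of all genes. The plasma protein genes had medians of 7988 bp of H3K4me2 and 8364.5 bp of H3K27ac in the window of 10001 bp, against 2152 bp of H3K4me2 and 1286 bp of H3K27ac over all genes. The window was filled by both marks at 45 genes. Among them were Ahsg, which encodes fetuin-A, Apoa1 and Apoc3, apolipoproteins of the same cluster on chromosome 9, and Apoc4. Aqp9, the glycerol channel of hepatocytes, Bcl6, a repressor, Btd, biotinidase, and Actb, beta-actin, also had both marks throughout. Alb had 7395 bp of H3K4me2 inside 10001 bp of H3K27ac in WT livers, and H3K27ac covered 14357 bp of its 15733 bp against 7260 bp for H3K4me2.

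The hepatocyte factors had about equal lengths of both marks. Nfib and Prox1 had 10001 bp of each. Hnf4a, the nuclear receptor that maintains hepatocyte identity, had 6877 bp of H3K4me2 and 6187 bp of H3K27ac at its start, and Cebpa 8301 bp of H3K4me2 and 8073 bp of H3K27ac. Nr1h4, the bile acid receptor, had 6563 bp of H3K4me2 and 9275 bp of H3K27ac. Nfia and Ppargc1a had neither mark at the listed start, which is 1 of several a gene may have, yet within its 540811 bp Nfia carried 96814 bp of H3K4me2 and 154707 bp of H3K27ac. Arid1a itself had 8172 bp of H3K4me2 and 7398 bp of H3K27ac in WT livers, and E2f4 had 5686 bp of H3K4me2 and 6543 bp of H3K27ac.

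Within gene spans in WT livers, H3K27ac often lay outside H3K4me2. Of all genes, 8740 had some H3K27ac outside H3K4me2 within their span, 42.3%, against 40 of 47 genes of hepatic metabolism, 20 of 28 hepatocyte factors and 26 of 40 plasma protein genes. It was also found at 25 of 26 genes of growth factor and Hippo signalling, 22 of 25 endothelial markers, 18 of 22 macrophage markers and 21 of 31 proteasome genes, so it was not a trait of hepatocyte genes alone. The lists differ in gene length, with a median span of 64502 bp for the growth factor genes and 17491 bp over all genes. Zbtb16, a zinc finger factor, led with 74757 bp of H3K27ac outside H3K4me2 in a gene of 184429 bp. Rad51b, a recombination factor, followed with 71490 bp, Zbtb20, a liver repressor, with 69514 bp, and Nfia with 66601 bp. At Igf1, the growth factor made by hepatocytes, H3K27ac covered 68458 bp of the 78783 bp and H3K4me2 31398 bp. At Zbtb16, H3K4me2 covered 44870 bp, of which 43694 bp also carried H3K27ac. The reverse was found at Pde4d, a phosphodiesterase gene of 1301793 bp, with 38882 bp of H3K4me2 outside H3K27ac, and at Foxp1, with 29232 bp. Summed lengths depend on how much was called in each list, and no KO values are given for these spans.

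Genes of the regeneration programme carried both marks as well, and in WT livers those of replication and mitosis had a shorter H3K27ac. All 36 DNA replication genes and 33 of 35 mitosis genes had both marks, against 57.6% of all genes, as had 31 of 32 acute phase and immediate early genes and all 26 genes of growth factor and Hippo signalling. At the acute phase and immediate early genes H3K27ac was the longer mark at 18 of 32. The replication genes had medians of 2899.5 bp of H3K4me2 and 1814 bp of H3K27ac. H3K4me2 was the longer mark at 33 of 36, against 56.1% of all genes. Mcm6, a subunit of the replicative helicase, had 5362 bp of H3K4me2 and 2855 bp of H3K27ac. Pcna, the sliding clamp, had 6275 bp of H3K4me2 and 2297 bp of H3K27ac. The mitosis genes had medians of 2207 bp of H3K4me2 and 1461 bp of H3K27ac, and H3K4me2 was the longer at 31 of 35.

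Cdc25c and Cenpf, a mitotic phosphatase and a kinetochore protein, were the 2 mitosis genes with H3K4me2 alone in WT livers. Cenpf had 1540 bp of H3K4me2 and 1904 bp of H3K27ac in KO livers, against 1214 and 0 bp in WT livers. Cdc25c had 1515 bp of H3K4me2 and 1136 bp of H3K27ac in KO livers, against 1657 and 0 bp in WT livers. Over the list, H3K4me2 was the longer mark at 16 of 35 mitosis genes in KO livers, where 59.0% of all genes had a longer H3K4me2, and at 31 of 35 in WT livers. For replication genes the counts were 22 of 36 in KO livers and 33 of 36 in WT livers. Ccnd1, cyclin D1, had 9159 bp of H3K4me2 and 9094 bp of H3K27ac in KO livers, against 9047 bp of H3K4me2 and 6554 bp of H3K27ac in WT livers.

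A stricter threshold took both marks from many of these genes. With regions of −log10 q-value of at least 10 alone, 28.6% of all genes had both marks and 22.5% H3K4me2 alone. Of the replication genes 8 of 36 then had both marks and 26 H3K4me2 alone, and of the mitosis genes 10 of 35 had both marks and 24 H3K4me2 alone. Their share with both marks was near or below that of all genes, and their share with H3K4me2 alone was above it. Under the same threshold both marks stood at 37 of 40 genes of the cytosolic ribosome, 29 of 31 of the proteasome, 21 of 28 hepatocyte factors and 23 of 32 acute phase genes. They stood at 25 of 40 plasma protein genes, 23 of 47 genes of hepatic metabolism and 15 of 26 genes of growth factor and Hippo signalling. At the deposited threshold all 40 ribosome and all 31 proteasome genes had both, with medians of 3722 bp of H3K4me2 and 3335 bp of H3K27ac for the ribosome.

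E2f4 summits from regenerating WT livers, which the classes did not use, lay mostly in stretches with both marks. In WT replicate 1, 1388 of 1741 summits (79.7%) and in replicate 2, 932 of 1033 (90.2%) fell in stretches with both marks, a mean of 85.0 ± 7.42% (SD, n = 2). Such stretches include parts with a single mark. Under both marks themselves lay 72.2% of summits in replicate 1 and 81.5% in replicate 2. H3K4me2 alone held 3.87 ± 0.684% and H3K27ac alone 0.221 ± 0.175% of summits, which was 6 summits in replicate 1 and 1 in replicate 2. Per Mb of marked sequence, stretches with both marks held 12.2 summits in replicate 1 and 8.19 in replicate 2, H3K4me2 alone 3.93 and 2.99, and H3K27ac alone 0.390 and 0.0651. No test was run over these 2 libraries. An E2f4 summit in both libraries within 1000 bp of the start was found at 33 of 35 mitosis genes and 24 of 36 replication genes, against 3.84% of all genes.

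H3K4me2 without H3K27ac was the commonest state of developmental regulators at the deposited threshold. Among 75 such genes outside the Hox clusters, 44 had H3K4me2 alone, against 10.1% of all genes, 9 had both marks and 22 neither. None had H3K27ac alone. The list had a median of 1879 bp of H3K4me2 and 0 bp of H3K27ac. Gata3 had 5638 bp of H3K4me2 and no H3K27ac in the window, Pax9, a regulator of thymus and teeth, 4757 bp and none, and Lhx1, a regulator of kidney and head, 4214 bp and none. Pax6 of the eye (2036 bp), Sox2 of neural stem cells (1182 bp) and Nkx2-5 of the heart (1520 bp) also had H3K4me2 alone. In KO livers 46 of the 75 genes had H3K4me2 alone, where 10.5% of all genes did. With stricter thresholds neither mark became the commonest state in WT livers: 26 of the 75 had H3K4me2 alone and 47 neither with −log10 q of at least 5, and 12 and 63 with at least 10. Over all genes H3K4me2 alone stood at 12.9% with at least 5 and 22.5% with at least 10.

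Of the 9 developmental regulators with both marks, several are known from non-hepatocyte cells of the liver. Hand2, a factor of hepatic stellate cells, had 5737 bp of H3K4me2 and 7047 bp of H3K27ac in KO livers, against 2300 bp of H3K4me2 and 10001 bp of H3K27ac in WT livers. Foxf1, a mesenchymal factor, had 6775 bp of H3K4me2 and 6322 bp of H3K27ac in KO livers, against 3466 bp of H3K4me2 and 10001 bp of H3K27ac in WT livers. Lhx2 of stellate cells had 6847 bp of H3K4me2 and 5306 bp of H3K27ac in WT livers, and Gata2 and Sox17 of endothelium 4996 and 5661 bp of H3K4me2 with 1886 and 3129 bp of H3K27ac. The other 4 were Ihh, Foxc1, Irx5 and Olig1, with between 148 and 2462 bp of H3K27ac.

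The Hox clusters, which set position along the body axis, divided by cluster. H3K27ac lay within 5000 bp of the position of 5 of 11 Hoxa genes and 7 of 10 Hoxb genes, and of none of 9 Hoxc and none of 9 Hoxd genes, in KO livers and in WT livers alike. H3K4me2 was present at 11 Hoxa, 8 Hoxb, 5 Hoxc and 8 Hoxd genes in KO livers, against 10, 9, 4 and 7 in WT livers. Hoxa2 had the most, 7786 bp of H3K4me2 and 10001 bp of H3K27ac in WT livers, and Hoxb4 had 5904 bp of H3K4me2 and 6368 bp of H3K27ac. Hoxa13 (2801 bp) and Hoxd13 (1856 bp), at the posterior ends of their clusters, had H3K4me2 alone. Over the 39 genes, 8 had both marks, 15 H3K4me2 alone and 16 neither. H3K27ac was the longer mark at 0 of 39 in KO livers and at 9 of 39 in WT livers, against 16.1 and 18.4% of all genes. The windows of neighbouring Hox genes overlap, so these genes are not independent.

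Of 35 neuronal genes, 2 had both marks, 15 H3K4me2 alone, 1 H3K27ac alone and 17 neither, against 57.6, 10.1, 0.808 and 31.4% of all genes. Elavl3, an RNA-binding protein of neurons, had 3510 bp of H3K4me2 and 352 bp of H3K27ac in WT livers. Of 24 genes of male germ cells, 19 had neither mark, and of 1456 olfactory and vomeronasal receptor genes 1447 had neither, against 31.4% of all genes. Of 13 fetal liver genes, 4 had both marks, 6 H3K4me2 alone and 3 neither. Afp, the fetal counterpart of albumin, had a merged stretch with both marks at its start, though no H3K27ac within 1000 bp, and within 5000 bp it had 4058 bp of H3K4me2 and 2557 bp of H3K27ac in WT livers. Igf2bp3, an RNA-binding protein of fetal tissue, had 4261 bp of H3K4me2 and 941 bp of H3K27ac, and Dlk1 had neither mark.

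**Figure D4:**
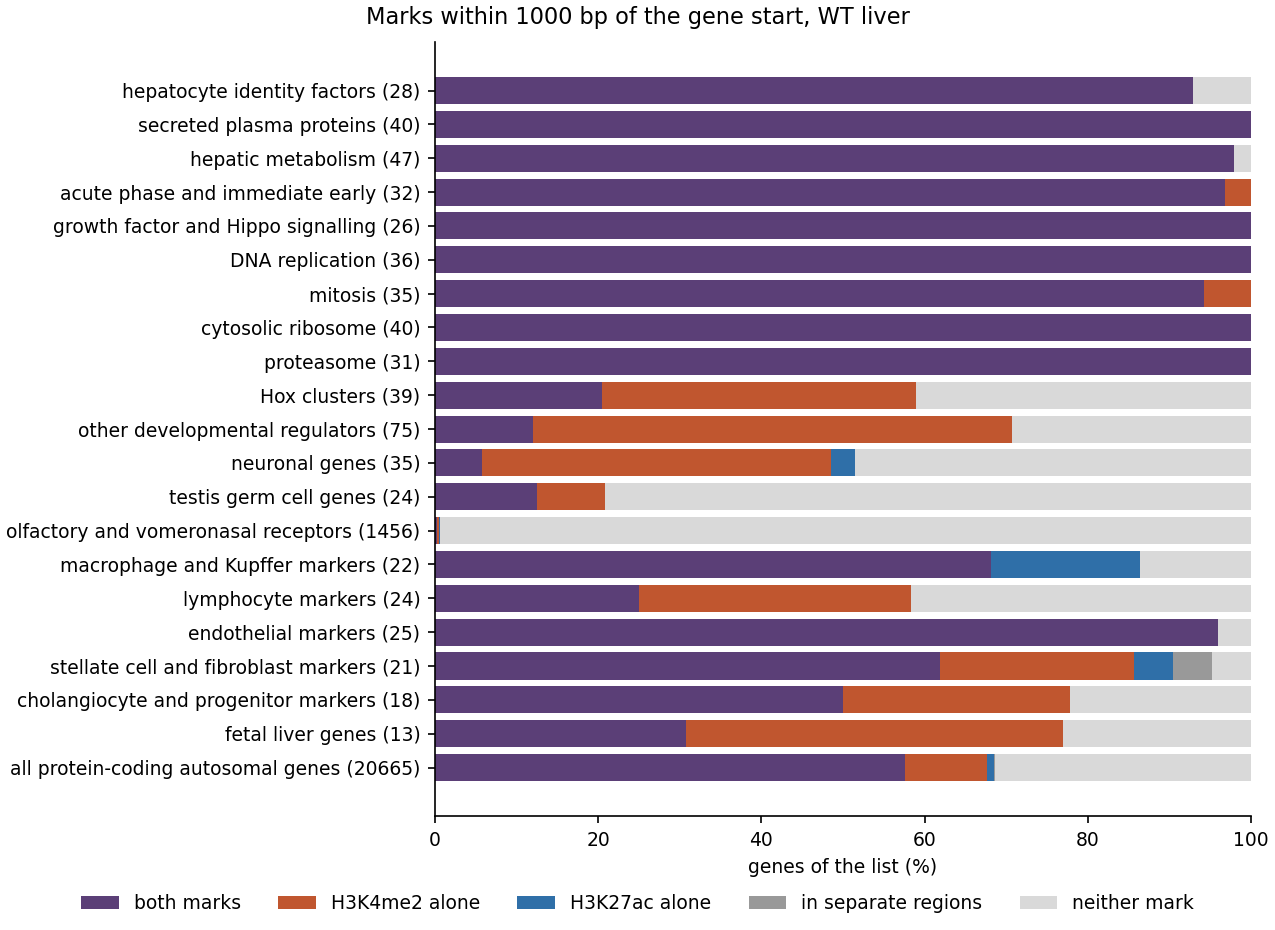
Share of the genes of each list (%) by the stretches that reach within 1000 bp of the gene start in WT liver. The classes are both marks, H3K4me2 alone, H3K27ac alone, both in separate regions or neither. In a stretch with both marks, either mark may lie outside the 1000 bp. The number of genes is in parentheses, and all protein-coding autosomal genes are at the bottom. Liver and growth lists are filled by both marks, 44 of 75 developmental regulators have H3K4me2 alone, and macrophage markers hold the most H3K27ac alone, 4 of 22.

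The long H3K4me2 stretches with no H3K27ac in the window, ranked over all genes, lay at genes known from other cell types and at liver genes. The former were Lef1, a Wnt effector of lymphocytes (7189 bp), Bcl11a, a repressor of lymphoid and erythroid cells (7117 bp), Gata3 (5638 bp) and Auts2, a neuronal gene (5356 bp). Their use in hepatocytes was not tested. Lef1 had 3461 bp of H3K4me2 and 0 bp of H3K27ac in KO livers, against 7189 and 0 bp in WT livers. Bcl11a and Gata3 also had H3K4me2 alone in KO livers, with 6882 and 5703 bp. Auts2 had both marks there, with 3691 bp of H3K4me2 and 158 bp of H3K27ac. The others, Cyp2a4 (6509 bp), Slc22a26 (6354 bp), Slc22a27 (5604 bp) and Sult3a1 (5505 bp), are liver genes known in mice for higher expression in females. In KO livers Cyp2a4 had 5703 bp of H3K4me2 and 4871 bp of H3K27ac, Slc22a27 had 5759 bp of H3K4me2 and 3367 bp of H3K27ac, and Sult3a1 had neither mark. Several of these genes have near-identical copies nearby, and the labels and headers do not say how reads that match several copies were placed.

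These genes led to 2 lists of sex-biased liver genes, written after these values had been seen. The female-biased list includes Cyp2a4, Slc22a26, Slc22a27 and Sult3a1 themselves, whose order of marks in WT livers was already known. H3K4me2 was longer than H3K27ac at 12 of 18 female-biased genes in KO livers and at 18 of 18 in WT livers, over the gene and 5000 bp either side. H3K27ac was longer at 6 of 16 male-biased genes in KO livers and at 15 of 16 in WT livers. The share over all genes was not taken for this stretch. Within 5000 bp of the gene position, a shorter stretch, H3K4me2 was the longer at 59.0% of all genes in KO livers and 56.1% in WT livers. H3K27ac was the longer there at 16.1 and 18.4%. The female-biased genes had medians of 6026.5 bp of H3K4me2 and 3689.5 bp of H3K27ac in KO livers, against 7675 bp of H3K4me2 and 111 bp of H3K27ac in WT livers. The male-biased genes had medians of 4507.5 bp of H3K4me2 and 5052 bp of H3K27ac in KO livers, against 4342.5 bp of H3K4me2 and 9063 bp of H3K27ac in WT livers. Cyp7b1, an oxysterol hydroxylase, had 4200 bp of H3K4me2 and 4585 bp of H3K27ac in KO livers, against 7193 bp of H3K4me2 and 39924 bp of H3K27ac in WT livers. Because of how they were chosen, the lists are no separate check of the split at Xist and the Y-linked genes. The mark, the sex of the animals and the genotype cannot be told apart here. Of the 18 female-biased genes 1 had H3K4me2 alone in KO livers, against 11 in WT livers.

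**Figure D5:**
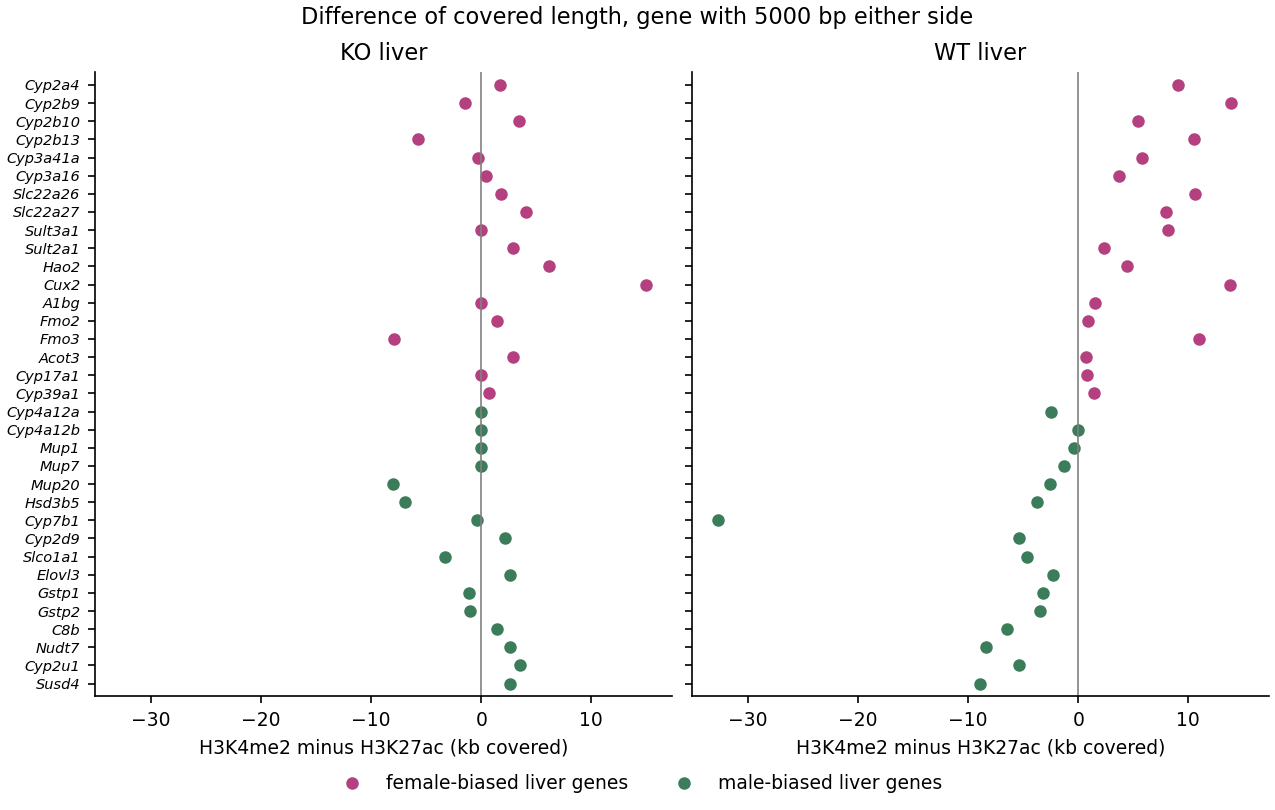
Covered length of H3K4me2 minus that of H3K27ac (kb) over each gene and 5000 bp either side, for 18 female-biased and 16 male-biased liver genes, in the KO pair of libraries and the WT pair, 1 library per mark and genotype. In WT all 18 female-biased genes lie above 0 and 15 of 16 male-biased genes below it, while in KO both groups lie on both sides.

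H3K27ac alone at a gene start was seen at few genes, and macrophage markers stood among them. Of 22 macrophage and Kupffer cell markers, 15 had both marks, 4 had H3K27ac alone, against 0.808% of all genes, and 3 had neither. H3K27ac was longer than H3K4me2 at 14 of the 22, against 18.4% of all genes. Cd163 had 0 bp of H3K4me2 and 1472 bp of H3K27ac in KO livers, against 0 and 3867 bp in WT livers. Cd5l, a protein secreted by macrophages, had 1823 bp of H3K4me2 and 3092 bp of H3K27ac in KO livers, against 2823 and 3904 bp in WT livers. Timd4, a receptor of resident Kupffer cells, and Ccr2, a chemokine receptor of monocytes, completed the 4. Unlike Cd163 and Cd5l, they were not in this class in KO livers. Timd4 had both marks there, with 2256 bp of H3K4me2 and 1450 bp of H3K27ac. Ccr2 had neither mark within 1000 bp, and 0 bp of H3K4me2 and 1402 bp of H3K27ac within 5000 bp. C1qa, a complement subunit made by macrophages, had 2088 bp of H3K4me2 and 8393 bp of H3K27ac in KO livers, against 3661 and 8390 bp in WT livers, so that this longer H3K27ac was present in both pairs. In KO livers H3K27ac was the longer mark at 17 of the 22 markers, where it was at 16.1% of all genes.

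Over all genes, the longest H3K27ac without H3K4me2 in the window lay at Ets1, a factor of lymphocytes and endothelium (8614 bp), at Med23, a Mediator subunit (6102 bp), and at Cd300e, a myeloid receptor (5702 bp). Ascl3 (4137 bp), Cd163 (3867 bp), Dnase2b (3790 bp), Sec1 (3722 bp) and 1700102P08Rik (3642 bp) followed. Ets1 and Med23 have no listed start and were placed by an outer end, which may be the end of the gene. Within its span Ets1 carried 47750 bp of H3K4me2 and 80763 bp of H3K27ac. Of the 167 genes, 18 were of the Pcdhg family, whose 21 genes share 8 positions here and so do not count as separate cases.

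Endothelial markers carried both marks at 24 of 25 genes, against 57.6% of all genes, with Vwf the exception in WT livers. H3K27ac was the longer mark at 9 of 25 in KO livers and at 20 of 25 in WT livers, against 16.1 and 18.4% of all genes. Eng, an endothelial TGF-beta coreceptor, had 7003 bp of H3K4me2 and 6137 bp of H3K27ac in KO livers, against 5579 and 10001 bp in WT livers. Pecam1, the endothelial adhesion molecule CD31, had 5877 bp of H3K4me2 and 5080 bp of H3K27ac in KO livers, against 2725 and 7141 bp in WT livers. Cdh5, endothelial cadherin, had 5333 bp of H3K4me2 and 4164 bp of H3K27ac in KO livers, against 4229 and 7511 bp in WT livers. With −log10 q-values of at least 5 alone, 6 of the 25 markers had both marks and 14 H3K27ac alone in WT livers, against 46.0 and 1.11% of all genes.

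Lymphocyte markers went the other way. Of 24 in KO livers, 3 had both marks, 1 H3K4me2 alone, 4 H3K27ac alone and 16 neither, against 6, 8, 0 and 10 in WT livers. Over all genes, in the same order, the shares were 58.0, 10.5, 0.605 and 30.8% in KO livers. In WT livers they were 57.6, 10.1, 0.808 and 31.4%. Cd79b, a B cell receptor subunit, had 0 bp of both marks in KO livers, against 4503 bp of H3K4me2 and 149 bp of H3K27ac in WT livers. Cd2 of T cells had 0 bp of both marks in KO livers, against 3712 bp of H3K4me2 and 0 bp of H3K27ac in WT livers. Cd3d, a subunit of the T cell receptor complex, had 870 bp of H3K4me2 and 644 bp of H3K27ac in KO livers, against 5293 and 1873 bp in WT livers. Cd8a, Gzmb and Ncr1 had 0 bp of either mark in all 4 libraries. The labels state that hepatocytes were isolated, yet marks lay at genes of several other cell types. In these bulk samples, more cells of a type and more of a mark per cell cannot be told apart, and the makeup of each library was not tested.

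Stellate cell and fibroblast markers had both marks at 13 of 21 genes, H3K4me2 alone at 5 and H3K27ac alone at 1. Over all genes in WT livers the shares, in the same order, were 57.6, 10.1 and 0.808%. H3K27ac was the longer mark at 8 of 21 in KO livers and at 13 of 21 in WT livers, against 16.1 and 18.4% of all genes. Cholangiocyte and progenitor markers had both marks at 9 of 18 and H3K4me2 alone at 5. Both marks were thus about as common in these lists as over all genes. Prom1, a progenitor surface protein, had 4051 bp of H3K4me2 and 2265 bp of H3K27ac in KO livers, against 4202 and 0 bp in WT livers. Krt7, Krt19 and Cftr, defining markers of bile ducts, had 0 bp of either mark in all 4 libraries.

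The CpG content of the promoters followed the classes. Of the 20665 genes, 16457 (79.6%) have a promoter in the RefSeq table: 80.9% of genes with both marks, 78.2% of those with H3K4me2 alone and 59.9% of those with H3K27ac alone. As under 80% of the single-mark classes have one, a check over those whole classes is void, and the values describe the listed promoters. Among these, the median ratio of observed to expected CpG was 0.770 with both marks (n = 9634), 0.617 with H3K4me2 alone (n = 1625), 0.196 with H3K27ac alone (n = 100) and 0.175 with neither (n = 5078). A ratio of at least 0.6 was found in 72.3% of promoters with both marks, 53.0% with H3K4me2 alone, 4 of 100 with H3K27ac alone and 7.03% with neither.

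Gene lists in which nearly all genes had both marks were not alike in sequence, again over the listed promoters alone. Plasma protein promoters, of which Alb above is one, had a median ratio of 0.199 (n = 32), against 0.883 for mitosis genes (n = 28) and 0.909 for the ribosome (n = 29). Developmental regulators, such as Gata3 above, had 0.771 (n = 56), and macrophage markers, such as Cd163 above, 0.176 (n = 17).

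Promoters with both marks and with H3K4me2 alone differed in some of the motifs searched. Among promoters with a ratio of at least 0.6, the letters CCGGAAG, the core of the site of ETS factors, stood on either strand in 22.7% of those with both marks (1578 of 6965) and 5.68% of those with H3K4me2 alone (49 of 862), against 20.2% of all 8194 promoters with such a ratio. The GC box GGGCGG of Sp factors was found in 75.2% of those with both marks and 75.5% of those with H3K4me2 alone, against 74.5% of all with such a ratio. CCAAT was found in 37.5% with both marks and 33.5% with H3K4me2 alone, against 37.0% of all with such a ratio. The CRE TGACGTCA was found in 4.09% with both marks and 2.78% with H3K4me2 alone, against 3.86% of all with such a ratio. The NRF1 site was found in 2.79% with both marks and 0.580% with H3K4me2 alone, against 2.49% of all with such a ratio. Promoters with both marks were thus near the share of all CpG-rich promoters, of which they are most, and those with H3K4me2 alone held fewer ETS and NRF1 matches. Over promoters of any CpG content, TATAAA between 45 and 16 bases before the start, on the gene's strand, was found in 1.41% of those with both marks, 2.52% with H3K4me2 alone and 6.32% with neither, against 3.07% of all. A match is a run of letters and not a bound site.

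More than 10000 bp from the outer ends of any gene, which includes positions inside long genes, the strongest stretches of each class were ranked by −log10 q-value, and by the lower of the 2 where both marks were present. With both marks they lay on chromosome 7 (130593378 to 130594396), inside Tacc2, on chromosome 9 (100641681 to 100646012) at an internal start of Stag1, and on chromosome 2 (136678101 to 136680857), 32582 bp from the nearer outer end of Snap25, all on build mm10. The strongest H3K4me2 alone lay on chromosome 9 (53829522 to 53830124), 20127 bp from the nearer outer end of Sln, with a −log10 q-value of 26.8. The strongest H3K27ac alone lay on chromosome 6 (139901187 to 139903489), inside Pik3c2g, a phosphoinositide kinase gene, with a −log10 q-value of 21.3 and a width of 2303 bp.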

How the data were processed

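Regenerating livers were profiled by ChIP-seq for H3K4me2, H3K27ac and E2f4. The submitters' processing notes name Bowtie2 2.2.3, Picard, MACS2 2.0.10.20131216, HOMER and build mm10, with no role given. The authors deposited a list of called regions per library, with a fold enrichment (a ratio), a −log10 p-value and a −log10 q-value for each region, and a score that was not used. The lowest −log10 q in the deposited histone lists was about 1.00, and depth is unknown because the lists hold no counts.

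Regions were compared by overlap (at least 1 bp) on 19 autosomes with Python 3.11.15, pandas 2.3.3, NumPy 2.4.6 and SciPy 1.17.1, and drawn with matplotlib 3.10.9. Interval arithmetic was tested on simulated lists and equalled the known answer in 20 of 20 runs. Intervals are exact Clopper-Pearson at 95% and cover counting error only. Gene positions are RefSeq starts, and for 2660 genes with several the one with the most marked length in WT livers. For 4208 genes without one (all of chromosome 18 included) they are the outer end with more marked length. In placing regions, every listed start counted, and so did both outer ends of those 4208 genes. KO values are read at the position chosen in WT livers, except where the KO pair is an alternative setting with positions of its own. Single genes named were, over all genes, the 8 longest of each kind and the strongest regions, up to 3 genes per class in each list, and Alb, Hnf4a, Cebpa, Ccnd1, Arid1a and E2f4; others were chosen after their values were seen. The members and gene lists were chosen with earlier results of these data known. With 1 library per mark no test was run. Other overlaps, thresholds, windows, gene positions and the KO pair were tried.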

Additional observations from a re-analysis of the deposited data

Results flagged for a closer look

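The order of the marks differed between genotypes at 5 gene lists. Each value is the median over the list of covered H3K4me2 minus H3K27ac within 5000 bp of the gene position, and each stands here because its sign was opposite in KO and WT livers. Endothelial markers had 645 bp in KO livers and -1433 bp in WT livers, and stellate cell and fibroblast markers 1086 bp in KO livers and -640 bp in WT livers. Mitosis genes had -338 bp in KO livers and 739 bp in WT livers, lymphocyte markers -79 bp in KO livers and 903 bp in WT livers, and acute phase and immediate early genes 19.5 bp in KO livers and -98 bp in WT livers. With 1 library per mark and genotype these differences were not tested.

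The Y chromosome, outside the autosomal comparison, carried H3K27ac in WT livers, with 3161 bp at Ddx3y, 1938 bp at Eif2s3y, 1766 bp at Uty and 889 bp at Kdm5d. They stand here as signal in data that the comparison did not use, since both KO lists and the WT H3K4me2 list had 0 bp at these genes.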

How the results depend on the processing

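Across the other settings tried, 17 values that answer a comparison stayed close and 70 moved. Stretches with both marks stayed the widest class under the q, gap, equal-list, minimum-width and KO settings, an order that the overlap rule favours. They stayed the class most often at gene starts under both other windows and with all annotated genes. The share of H3K4me2 regions with H3K27ac, that of H3K27ac regions with H3K4me2 and the shared part of the marked length were 59.6, 76.8 and 45.4% with −log10 q of at least 5, and 46.7, 76.5 and 35.4% with at least 10. An overlap of 50% of the shorter region gave shares of 61.3 and 62.0%, a gap of up to 1000 bp 67.9 and 71.2%, lists of equal length 65.7 and 63.8%, and a width of at least 500 bp 67.8 and 69.1%. The KO pair, chosen after seeing the data, gave 56.1, 71.4 and 49.2%. Median widths (both marks, H3K4me2 alone, H3K27ac alone) were 3513, 1215 and 2501 bp with q of at least 5, 3884.5, 2033 and 3828 bp with at least 10, 2333, 544 and 568 bp with the gap, 2167, 546 and 532 bp with equal lists, 2516, 816 and 911 bp with the minimum width, and 2186, 501 and 499 bp in the KO pair. With 50% overlap the single-mark widths were 536 and 534 bp. The shares at gene starts, in the same class order, were 29.3, 9.67 and 1.38% within 500 bp, 37.9, 21.8 and 12.9% within 5000 bp, and 36.6, 16.6 and 6.15% with all annotated genes. Shares of genes with both marks, H3K4me2 alone and neither were 56.8, 9.38 and 33.0% within 500 bp and 62.3, 11.1 and 25.2% within 5000 bp. With H3K27ac alone named before neither, they were 46.0, 12.9, 1.11 and 40.0% with q of at least 5, 28.6, 22.5, 1.42 and 47.5% with at least 10, and 55.8, 8.97, 1.36 and 33.8% from outer gene ends. Genes with a listed start alone, also chosen after seeing the data, gave 58.5% with both marks and 0.608% with H3K27ac alone, and the KO pair at its own most marked gene positions, not those of WT livers, gave 10.7% with H3K4me2 alone, 0.634% with H3K27ac alone and 30.5% with neither. Of WT stretches with H3K4me2 alone, 13.6% carried KO H3K27ac at 50% overlap. The share of E2f4 summits in stretches with both marks ranged from 79.7 to 90.2% when either library was left out. The cause of these moves was not tested. No paired analysis was possible because each mark has 1 library per genotype. The lists hold called regions and no read counts, so an uncalled mark is one that did not pass the authors' threshold, and depth, which is unknown, could move that limit in either list.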

Other observations

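Of 919 microRNA hairpins in the table used, which does not cover every autosome, 241 (26.2%) had a stretch with both marks within 1000 bp. H3K4me2 stood alone at 55 (5.98%), H3K27ac alone at 40 (4.35%), and 583 (63.4%) had neither. Of protein-coding genes the shares, in the same order, were 57.6, 10.1, 0.808 and 31.4%. A hairpin can lie far from the start of its primary transcript. Mature sequences from RefSeq are shown for 4 hairpins known from liver, endothelium, lymphocytes and neurons, with the seed (bases 2 to 8) in capitals.
miR-192-5p: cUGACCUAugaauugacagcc
miR-126a-3p: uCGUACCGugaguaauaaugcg
miR-155-5p: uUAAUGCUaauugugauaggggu
miR-9-5p: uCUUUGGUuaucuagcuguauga
Mir192, abundant in hepatocytes, had 6809 bp of H3K4me2 and 8042 bp of H3K27ac within 5000 bp in WT livers. Mir126a, inside the endothelial gene Egfl7, had 7650 bp of H3K4me2 and 9158 bp of H3K27ac. Mir155 had 152 bp of H3K4me2 and Mir9-1 1395 bp, both without H3K27ac.

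Gene families picked after their values were seen differed too. Over all genes, H3K4me2 alone stood at 10.5% in KO livers and 10.1% in WT livers, H3K27ac alone at 0.605 and 0.808%, and both marks at 58.0 and 57.6%. Of 19 Wnt ligand genes, 11 had H3K4me2 alone in KO livers and 11 in WT livers, and 5 had both marks in each. Of 92 genes named Kcn, mostly potassium channel subunits, 42 had H3K4me2 alone in KO livers and 35 in WT livers. Of 21 Pcdhg genes, the clustered protocadherins, 19 had H3K4me2 alone in KO livers, while 18 had H3K27ac alone in WT livers, over 8 shared positions.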
